A study of Rattus norvegicus with 40 samples.

Results

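Sham cerebellum was compared with sham forebrain in adult rat brain, using 5 cerebellum libraries and the 15 libraries of hippocampus, amygdala and anterior cortex (5 each) among the 40 libraries of the series. Every library used here came from a rat labelled sham, the control arm of an experiment in which the other 20 libraries came from blast-exposed rats, and the tissue was taken 12 months after the exposure. Strain, sex and age were not given in the sources used here. Total RNA from each region was sequenced, and the deposited raw read counts of the 20 libraries were joined over the 4 region tables by gene identifier. A gene was said to be set apart when its adjusted p was under 0.05 against each of the 3 forebrain regions (edgeR quasi-likelihood F test, Benjamini-Hochberg adjustment over 15695 genes) with the same direction and a log2 difference of at least 1 in size in all 3. By this rule 2509 of 15695 genes (16.0%) set cerebellum apart from all 3 forebrain regions.

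The cerebellar cortex is built around a small set of neurons. Granule cells, the most numerous neurons of the brain, send parallel fibres that excite Purkinje cells, whose inhibitory axons are the only output of the cortex. Stellate, basket and Golgi cells inhibit this circuit, Bergmann glia ensheathe the Purkinje dendrites, and the cerebellar nuclei carry the output onward. These cells arise from the hindbrain under transcription factors such as the engrailed, Zic and Lhx1/5 proteins. Hippocampus, amygdala and cortex arise from the forebrain under factors such as Emx and Lhx2, and many of their neurons are excitatory pyramidal or pyramidal-like cells. Textbook marker genes of these cells were the first check of the labels, and they went with them: granule cell genes were high in the 5 libraries labelled cerebellum, and pyramidal neuron genes in the 15 labelled as forebrain regions.

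The promoters of 4 genes are shown because these genes lie at the ends of the comparison and mark its main cells: Gabra6 (granule cells) and Pcp2 (Purkinje cells) were high in cerebellum, and Emx1 (a dorsal forebrain transcription factor) and Nrgn (neurogranin, of forebrain pyramidal neurons) were high in forebrain. Each sequence is the RefSeq window from 250 bases before to 50 bases after the start of the gene in build GRCr8, written 5′ to 3′ on the strand of the gene. Capitals mark matches to the E-box CAGATG (a neurogenic bHLH motif, bound by factors such as the Neurod proteins) or to AGGTCA (the half-site of nuclear receptors of the ROR type), searched on both strands.
Gabra6, chr10:27327185-27327484, minus strand: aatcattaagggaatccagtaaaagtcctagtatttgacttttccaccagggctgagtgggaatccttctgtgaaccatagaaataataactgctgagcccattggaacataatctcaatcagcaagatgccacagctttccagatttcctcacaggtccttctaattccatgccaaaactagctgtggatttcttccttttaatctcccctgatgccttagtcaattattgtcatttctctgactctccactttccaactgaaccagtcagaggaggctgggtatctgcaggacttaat
Pcp2, chr12:6481258-6481557, minus strand: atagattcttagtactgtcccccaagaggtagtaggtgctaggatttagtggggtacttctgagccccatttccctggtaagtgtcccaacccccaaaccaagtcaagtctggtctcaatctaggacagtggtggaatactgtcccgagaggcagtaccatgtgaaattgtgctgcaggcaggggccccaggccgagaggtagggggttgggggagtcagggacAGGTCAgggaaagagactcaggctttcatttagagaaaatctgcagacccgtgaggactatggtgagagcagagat
Emx1, chr4:119282442-119282741, plus strand: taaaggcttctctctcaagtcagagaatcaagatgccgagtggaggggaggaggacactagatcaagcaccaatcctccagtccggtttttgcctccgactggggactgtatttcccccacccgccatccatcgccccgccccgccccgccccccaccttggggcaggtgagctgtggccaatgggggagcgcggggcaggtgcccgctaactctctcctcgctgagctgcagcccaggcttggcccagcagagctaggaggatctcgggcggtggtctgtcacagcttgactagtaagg
Nrgn, chr8:45452368-45452667, minus strand: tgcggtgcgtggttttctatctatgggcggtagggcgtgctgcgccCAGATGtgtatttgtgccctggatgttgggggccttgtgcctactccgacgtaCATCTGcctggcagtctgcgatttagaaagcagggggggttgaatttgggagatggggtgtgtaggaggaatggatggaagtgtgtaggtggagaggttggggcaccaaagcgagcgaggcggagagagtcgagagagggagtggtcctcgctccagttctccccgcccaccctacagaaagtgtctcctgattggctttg

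The Pcp2 window held 1 AGGTCA, 26 bases before the start of the gene. The Nrgn window held CAGATG at 204 bases before the start and its reverse complement at 151 bases before it. The windows of Gabra6 and Emx1 held neither. Promoter windows were found for 10407 of the tested genes by a symbol that named 1 gene, among them 480 of the 808 genes that were higher in cerebellum and 1085 of the 1701 that were lower. CAGATG was in 11.7% of the higher genes' windows, 12.9% of the lower genes' and 11.1% of all windows, and AGGTCA was in 13.3%, 12.6% and 11.8%. The homeodomain core TAATTA was in 1.25% of the higher genes' windows, 3.78% of the lower genes' and 2.18% of all. The E-box CAGCTG stood at 18.1%, 19.4% and 16.5%, the cAMP response element TGACGTCA at 2.50%, 1.84% and 3.05%, and the Egr motif GCGTGGGCG at 1.25%, 1.29% and 1.10%. No 2 of these motifs are the same sequence, but CAGATG and CAGCTG are both E-boxes and differ by 1 base. AGGTCA and TGACGTCA both end in GTCA. Each motif can occur beside another in the same window. The median GC content was 60.7%, 60.3% and 61% in the 3 sets.

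The 20 libraries held 11268097 to 19156693 counts, and the 5 cerebellum libraries 11655408 to 15026682. Between 17510 and 19540 genes had at least 1 count in a library. Cerebellum counts were deposited in a table made with another gene annotation than the forebrain tables: of 20814 genes in all 4 tables, 597 had other coordinates or another length there, so that region and table cannot be told apart. Of the tested genes with the same model in all tables, 5.17% were set apart higher and 10.75% lower, and of the 500 with another model 4.4% were higher and 13.4% lower. Of the 427 tested genes that overlap a gene listed in the tables of 1 side only, 4.45% were higher and 20.61% lower, against 5.17% and 10.56% of the 15268 that overlap none. Anterior cortex libraries 11, 13 and 15 stood apart with 17510 to 17845 genes detected, against 18744 and 19295 in the other anterior cortex libraries, and hippocampus library 11 and cerebellum library 33 were high in choroid plexus genes. Without the 3 anterior cortex libraries, 884 genes were set apart higher and 1775 lower. One amygdala library whose number did not match a title was used as a member of its group only. The labels do not say that the libraries of a group came from separate animals, so the p-values measure the spread between these libraries. Intervals on counts cover counting error only.

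Cerebellum stood further from each forebrain region than the forebrain regions stood from each other. Against hippocampus 53.3% of the genes tested passed an adjusted p of 0.05, 3987 of them higher in cerebellum (25.4%) and 4374 lower (27.9%). Against amygdala 58.5% did, 4359 higher (27.8%) and 4827 lower (30.8%), and against anterior cortex 60.2% did, 4671 higher (29.8%) and 4776 lower (30.4%). These 3 comparisons share the 5 cerebellum libraries. The balance of directions depends on the scaling: with libraries scaled to their totals, 4951 genes were higher and 3678 lower against hippocampus, 5449 and 4113 against amygdala and 6478 and 3803 against anterior cortex, so that 57.4%, 57.0% and 63.0% of the called genes were higher. The median size of the log2 difference over all genes tested was 0.51 between cerebellum and hippocampus, 0.55 between cerebellum and amygdala and 0.58 between cerebellum and anterior cortex. It was 0.25 between hippocampus and amygdala, 0.41 between hippocampus and anterior cortex and 0.30 between amygdala and anterior cortex.

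Of the 2509 genes set apart, 808 were higher in cerebellum (5.15% of those tested) and 1701 were lower (10.8%). All 5 cerebellum libraries lay above all 15 forebrain libraries in 761 of the 808 (4.85% of genes tested), and all 5 lay below in 1297 of the 1701 (8.26% of genes tested). Over all genes, set apart or not, all 5 lay on 1 side of all 15 in 26.7%. The 808 higher genes took 8.92% ± 0.17 of the counts in cerebellum (SD, n = 5) and 1.80% ± 0.13 in forebrain (SD, n = 15). The 1701 lower genes took 3.52% ± 0.11 in cerebellum and 13.7% ± 0.51 in forebrain. With libraries scaled to their totals in place of TMM factors, 1051 genes were set apart higher and 1435 lower, so that higher genes made up 42.3% of those set apart, against 32.2% by the TMM scaling. The larger number of lower genes was seen under both scalings, while its excess was smaller under the first.

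The same rule applied to each forebrain region against the other 3 regions set apart far fewer genes. It found 327 genes for hippocampus (2.08%), of which 182 were higher and 145 lower. For amygdala it found 108 (0.688%), of which 90 were higher and 18 lower, and for anterior cortex 212 (1.35%), of which 148 were higher and 64 lower. In cerebellum 266 genes were at least 4-fold higher in all 3 contrasts and 724 at least 4-fold lower, and 35 and 98 genes passed 32-fold. At 256-fold 10 higher and 15 lower genes were left.

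**Figure D1:**
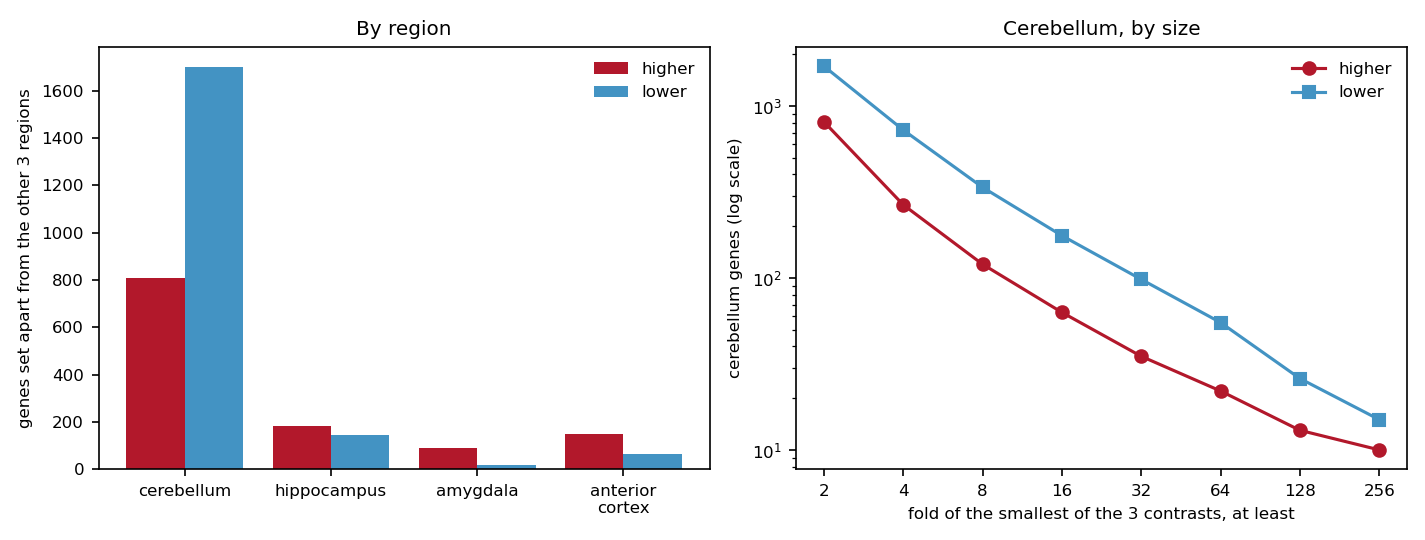
Left, the number of genes set apart from the other 3 regions (y axis) for cerebellum, hippocampus, amygdala and anterior cortex, higher in red and lower in blue. Right, the number of cerebellum genes on a log scale whose smallest of the 3 differences passed the fold on the x axis. Cerebellum had 808 higher and 1701 lower genes, against 327 genes in all for hippocampus, and lower genes outnumbered higher ones at each fold from 2 to 256.

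Granule cell genes were among the largest differences. Of 28 granule cell genes tested, 22 were set apart higher in cerebellum and none lower, with a median log2 difference of 3.14 against 0.0045 over all genes tested. Here and in the lists below, where no member was set apart in a direction by edgeR, none was so at an unadjusted p under 0.05, by DESeq2 or by limma-voom either. Levels are given as CPM, counts scaled to a common library size after TMM adjustment. In bulk tissue, a lower level from fewer cells of a type and one from less RNA per cell cannot be told apart. Gabra6 (ENSRNOG00000003569, chromosome 10, 27847439 to 27862868, minus strand in the deposited tables, whose genome build was not given in the sources used here) encodes the GABA-A receptor alpha 6 subunit of granule cells. It had 962, 921, 930, 991 and 949.6 CPM in the 5 cerebellum libraries, against a lowest of 0, a median of 0.155 and a highest of 1.12 CPM in the 15 forebrain libraries. The groups did not come near each other, and the log2 difference was 12.66 ± 0.42 against hippocampus, 13.06 ± 0.43 against amygdala and 10.67 ± 0.37 against anterior cortex (SE, adjusted p at most 1.10e-15, edgeR).

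Fat2 (ENSRNOG00000012575, chromosome 10), a giant cadherin of granule cell parallel fibres, had 1128, 1125, 1377, 912 and 1164 CPM in cerebellum, against a lowest of 0, a median of 0.881 and a highest of 2.17 CPM in forebrain. Cbln3 (ENSRNOG00000020503, chromosome 15, 34548295 to 34550860, minus strand), a cerebellin that is released together with Cbln1, had 562, 491, 516, 514 and 506 CPM in cerebellum, against a lowest of 0, a median of 0.284 and a highest of 1.51 CPM in forebrain. In both genes no forebrain library reached 3 CPM while no cerebellum library was under 491 CPM. Their log2 differences, as the mean over the 3 contrasts, were 10.92 ± 0.20 and 10.35 ± 0.24 (SE, adjusted p at most 4.07e-15 in each contrast).

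Cbln1 (ENSRNOG00000000010, chromosome 19), the cerebellin that granule cells release to join parallel fibres to Purkinje cells, had 753, 842, 770, 869.7 and 777 CPM in cerebellum, against a lowest of 1.91, a median of 4.95 and a highest of 13.6 CPM in forebrain. Amygdala had the highest forebrain level, 10.6 ± 1.88 CPM (SD, n = 5), against 2.93 ± 1.33 in hippocampus and 4.78 ± 2.33 in anterior cortex. The log2 difference was 8.06 ± 0.30 against hippocampus, 6.25 ± 0.27 against amygdala and 7.38 ± 0.29 against anterior cortex (adjusted p at most 3.08e-14). Neurod1 (ENSRNOG00000005609, chromosome 3), a bHLH factor needed for granule cells of both the cerebellum and the dentate gyrus, had 581, 478, 481, 538 and 527 CPM in cerebellum, against a lowest of 3.17, a median of 12.8 and a highest of 35.1 CPM in forebrain. Within forebrain it was highest in hippocampus, at 31.1 ± 3.73 CPM, and the log2 difference from cerebellum was smallest there, 4.07 ± 0.14 against hippocampus, 5.38 ± 0.15 against amygdala and 6.79 ± 0.16 against anterior cortex. Etv1 (ENSRNOG00000006867, chromosome 6), an ETS factor of maturing granule cells and of cortical layer 5, had 812, 717, 794, 814 and 782 CPM in cerebellum, against a lowest of 70.6, a median of 109 and a highest of 139 CPM in forebrain. Every cerebellum library was above every forebrain one, with a mean log2 difference of 2.87 ± 0.07.

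The related factors Neurod2 and Neurod6 did not follow Neurod1. Neurod2 had 121, 114, 122, 114 and 104 CPM in cerebellum, against a lowest of 39.6, a median of 54.9 and a highest of 187 CPM in forebrain, and the groups overlapped. It was lower in cerebellum than in hippocampus and higher than in amygdala and anterior cortex, with log2 differences of -0.49 ± 0.11 against hippocampus, 1.07 ± 0.11 against amygdala and 1.28 ± 0.11 against anterior cortex. Neurod6, of forebrain pyramidal neurons, was lower than in hippocampus by a log2 difference of -2.58 and had log2 differences of -0.13 against amygdala (adjusted p = 0.57) and 0.13 against anterior cortex (adjusted p = 0.564, edgeR).

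Purkinje cell genes were higher in cerebellum as a group. Of 34 tested, 23 were set apart higher and 1 lower, Cck, with a median log2 difference of 2.31. Pcp2 (ENSRNOG00000000993, chromosome 12, 2172378 to 2174131, minus strand), a Purkinje cell regulator of G proteins, had 166, 160.3, 131, 176 and 150.1 CPM in cerebellum, against a lowest of 0, a median of 0 and a highest of 0.495 CPM in forebrain. Most forebrain libraries had no Pcp2 count at all, and the log2 difference was 10.22 ± 0.44 against hippocampus, 11.19 ± 0.48 against amygdala and 10.69 ± 0.47 against anterior cortex. Ppp1r17 (ENSRNOG00000012235, chromosome 4), a phosphatase inhibitor and substrate of the cGMP-dependent kinase in Purkinje cells, had 152, 160.2, 166, 193 and 159 CPM in cerebellum, against a lowest of 0, a median of 0.548 and a highest of 2.17 CPM in forebrain. Car8 (ENSRNOG00000005669, chromosome 5), a carbonic anhydrase-related protein that binds the IP3 receptor, had 624, 600, 665, 674 and 616 CPM in cerebellum, against a lowest of 2.86, a median of 9.22 and a highest of 28.1 CPM in forebrain. For Ppp1r17 and Car8 too the groups were fully separate, with mean log2 differences of 8.23 ± 0.19 and 6.06 ± 0.09.

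Calcium-binding proteins separated more by degree. Calb1 (calbindin), abundant in Purkinje cells and also present in many forebrain neurons, had 575, 602, 625, 642 and 572 CPM in cerebellum, against a lowest of 34.5, a median of 98.8 and a highest of 129 CPM in forebrain. Pvalb (parvalbumin), of Purkinje cells, molecular layer interneurons and fast-spiking forebrain interneurons, had 423, 456, 346, 478 and 420.1 CPM in cerebellum, against a lowest of 13.4, a median of 18.9 and a highest of 45.1 CPM in forebrain. Calb2 (calretinin), of granule and unipolar brush cells, had 385, 358, 320.3, 408 and 339 CPM in cerebellum, against a lowest of 3.59, a median of 17.8 and a highest of 28.9 CPM in forebrain. The ranges did not overlap for any of these 3 genes, and their mean log2 differences were 2.96 ± 0.08, 4.32 ± 0.15 and 4.75 ± 0.17. On a scale of CPM per kilobase of gene length, on which genes can be set beside each other, Pvalb stood at 791 in cerebellum and 40.8 in forebrain, Calb1 at 354 in cerebellum and 49.1 in forebrain, Pcp2 at 340.1 in cerebellum and 0.193 in forebrain, Gabra6 at 374 in cerebellum and 0.104 in forebrain and Cbln1 at 328 in cerebellum and 2.49 in forebrain.

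The machinery of the parallel fibre to Purkinje cell synapse was tested as a list of 34 genes, of which 13 were set apart higher and 3 lower, with a median log2 difference of 0.72. Slc1a6, the Purkinje cell glutamate transporter, had 148, 159.5, 178, 162 and 143 CPM in cerebellum, against a lowest of 1.12, a median of 4.08 and a highest of 7.04 CPM in forebrain, and its mean log2 difference was 5.36 ± 0.15. Atp2a3, a calcium pump of the Purkinje endoplasmic reticulum, had 354 ± 17 CPM in cerebellum (SD, n = 5) and 9.16 ± 3.13 CPM in forebrain (SD, n = 15). Both were higher in cerebellum in every library. The 3 lower genes were Ncs1, a neuronal calcium sensor, Grip1, a scaffold of AMPA receptors, and Pde1b, a phosphodiesterase, with mean log2 differences of -1.76, -1.85 and -2.21.

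Genes of the other cerebellar neurons gave smaller counts. Of 20 genes of cerebellar inhibitory interneurons, 7 were set apart higher and 3 lower, with a median log2 difference of 1.14. Slc6a5, the glycine transporter of inhibitory neurons such as Golgi cells and those of the nuclei, had 56, 50.1, 43.4, 46.9 and 49.5 CPM in cerebellum, against a lowest of 0.293, a median of 1.44 and a highest of 10.3 CPM in forebrain. The forebrain maximum came from amygdala, which averaged 9.05 ± 1.01 CPM (SD, n = 5) against 1.05 ± 0.521 in hippocampus and 1.15 ± 0.401 in anterior cortex. Slc32a1, the vesicular transporter of GABA and glycine, was closer between the regions, at 183 ± 15.4 CPM in cerebellum and 73.7 ± 23.7 CPM in forebrain, with a log2 difference of 1.93 ± 0.16 against hippocampus, 1.04 ± 0.16 against amygdala and 1.12 ± 0.16 against anterior cortex, the second of which is just past the threshold of 1. Without amygdala library 33 or anterior cortex library 15 it was not set apart, at mean log2 differences of 1.34 and 1.32, nor was it with upper-quartile factors, with the gene length trend removed with or without the replicate block, without anterior cortex libraries 11, 13 and 15 or in the blast libraries, at 1.26 to 1.31.

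Pax2, a factor of developing cerebellar interneurons, had 9.29, 9.16, 9.19, 5.4 and 7.85 CPM in cerebellum and at most 0.233 CPM in forebrain, where 5 counts were seen in all 15 libraries. The ratio of summed counts was 329-fold, with a 95% exact counting interval of 140 to 1015. Of 14 genes of unipolar brush cells and cerebellar nuclei, 6 were set apart higher and 4 lower, with a median log2 difference of 1.48. Eomes, a factor of unipolar brush cells, had 25.2, 14.3, 8.92, 16.2 and 9.56 CPM in cerebellum, against a lowest of 0, a median of 0.157 and a highest of 5.56 CPM in forebrain. It varied more within cerebellum than the granule and Purkinje genes did. The forebrain maximum was in anterior cortex, where the log2 difference was smallest, 6.50 ± 0.64 against hippocampus, 7.05 ± 0.67 against amygdala and 2.03 ± 0.46 against anterior cortex.

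Bergmann glia genes were mixed. Of 23 tested, 6 were set apart higher and 2 lower, with a median log2 difference of -0.39. Gdf10, a growth factor of Bergmann glia, had 89.1, 102, 91.1, 98.5 and 84.4 CPM in cerebellum, against a lowest of 1.98, a median of 9.85 and a highest of 19.7 CPM in forebrain. Timp4, a metalloproteinase inhibitor, had 127, 129, 120.5, 139.8 and 117 CPM in cerebellum, against a lowest of 14.9, a median of 20.6 and a highest of 28.3 CPM in forebrain. Dao, the D-amino acid oxidase of hindbrain astroglia, had 49.1, 51.8, 48, 60 and 46.5 CPM in cerebellum, against a lowest of 0.203, a median of 0.711 and a highest of 1.88 CPM in forebrain. In these 3 genes the groups did not overlap, and the mean log2 differences were 3.59 ± 0.10, 2.60 ± 0.10 and 6.03 ± 0.23. Fabp7, a fatty acid binding protein of radial and Bergmann glia, was lower in cerebellum, at 14.5 ± 2.5 CPM and 49.8 ± 18.1 CPM in forebrain, with a mean log2 difference of -1.76.

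**Figure D2:**
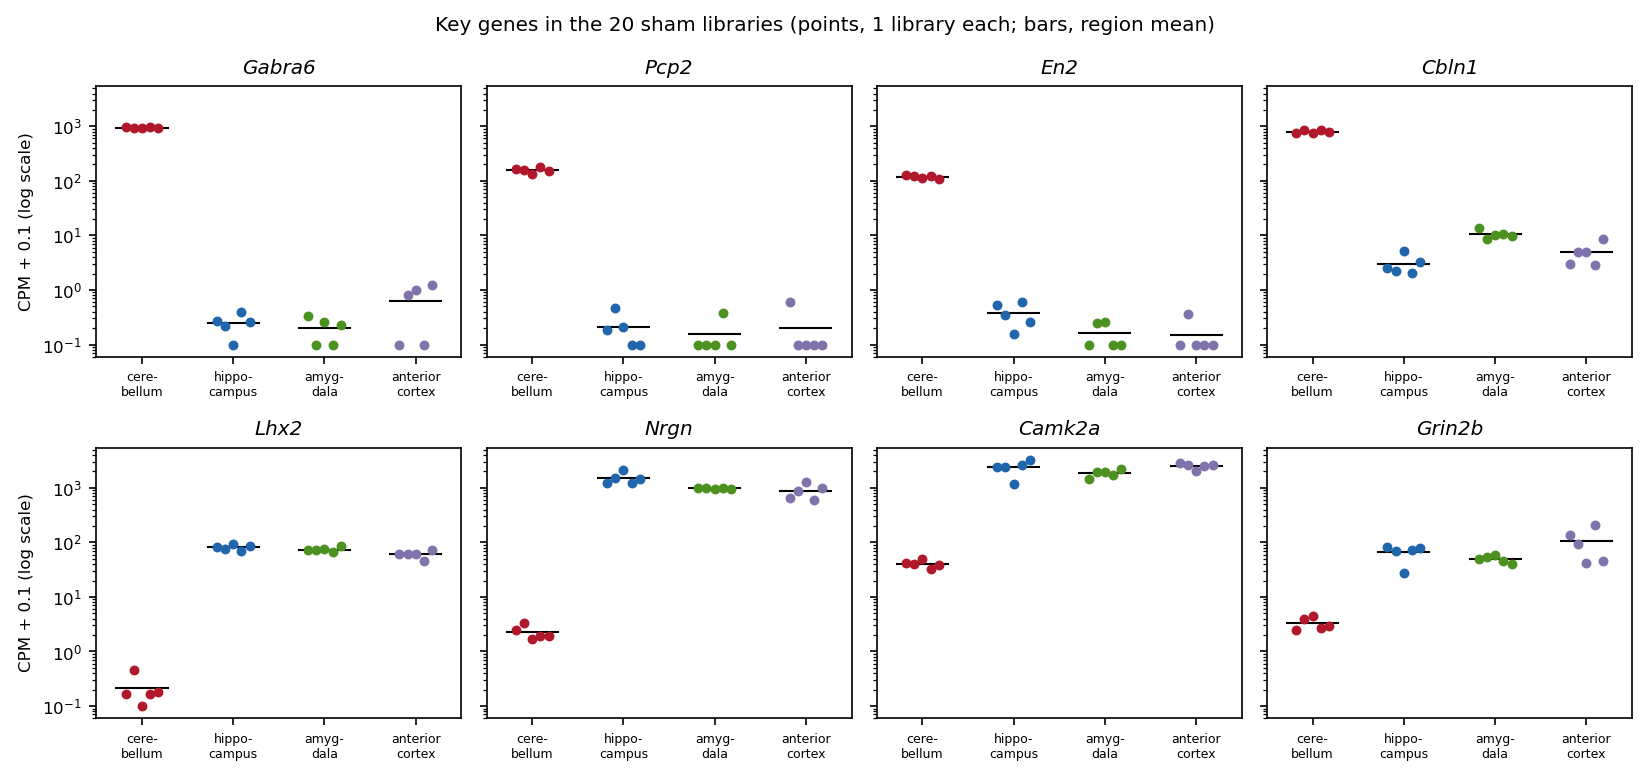
Levels of 8 genes in the 20 sham libraries as CPM plus 0.1 on a log scale, by region, with 1 point a library and a bar at the region mean. Gabra6, Pcp2, En2 and Cbln1 were above every forebrain library in all 5 cerebellum libraries, and Lhx2, Nrgn, Camk2a and Grin2b were below every forebrain library.

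Transcription factors that pattern the hindbrain and midbrain still separated cerebellum from forebrain, where they could be tested, in these libraries taken long after development. Of 49 names on the list 22 were tested, and the others were missing from a table or had too few counts. Of the 22 tested, 18 were set apart higher and 1 lower, Meis2, with a median log2 difference of 4.94. A gene near 0 in forebrain could pass the count filter only through cerebellum, so the share higher was partly fixed by the filter. Forebrain factors near 0 in cerebellum entered their list in the same way. En2 (ENSRNOG00000006846, chromosome 4, 438668 to 444501, plus strand), the engrailed factor of the midbrain and hindbrain border, had 128, 121, 112, 124 and 108 CPM in cerebellum, against a lowest of 0, a median of 0.0527 and a highest of 0.513 CPM in forebrain. It had 26 counts in all 15 forebrain libraries, and the ratio of summed counts was 919-fold, with a 95% exact counting interval of 627 to 1407. Zic1, a zinc finger factor of the granule lineage, had 638, 565, 597, 587 and 523 CPM in cerebellum, against a lowest of 7.38, a median of 20.9 and a highest of 33.4 CPM in forebrain. Every cerebellum library was above the forebrain range, with a log2 difference of 5.67 ± 0.26 against hippocampus, 4.91 ± 0.25 against amygdala and 4.45 ± 0.24 against anterior cortex.

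Lhx1 and Lhx5, LIM homeodomain factors of Purkinje cells, stood at 36.9 ± 1.11 and 18 ± 2.46 CPM in cerebellum and at no more than 0.382 and 0.774 CPM in any forebrain library. The ratio of summed Lhx1 counts was 673-fold, with a 95% exact counting interval of 376 to 1350. Uncx, a homeodomain factor, had 63.2, 58, 60.9, 48 and 51.9 CPM in cerebellum and no count in any hippocampus or anterior cortex library. Its 31 forebrain counts were all in amygdala, and the ratio of summed counts was 366-fold, with a 95% exact counting interval of 257 to 539. Hes3, a transcriptional repressor of the Hes family, had 73.7, 73.5, 74.2, 75.3 and 61.1 CPM in cerebellum, against a lowest of 0, a median of 0.105 and a highest of 1.2 CPM in forebrain. Tfap2a and Tfap2b, AP-2 factors of cerebellar interneuron precursors and Purkinje cells, averaged 12.7 ± 1.6 and 103 ± 10.7 CPM in cerebellum, against 0.126 ± 0.122 and 2.14 ± 2.11 CPM in forebrain. Meis2, the lower gene of the list, is also a factor of striatal and amygdala neurons, and had 1.77, 1.4, 1.49, 1.99 and 4.43 CPM in cerebellum, against a lowest of 17.1, a median of 65.1 and a highest of 143 CPM in forebrain.

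Crtam (ENSRNOG00000008153, chromosome 8), an immunoglobulin superfamily protein best known from T cells, was the named gene seen in cerebellum libraries alone. It had 39.5, 45.8, 42.4, 50.4 and 47.3 CPM in cerebellum and no count in any of the 15 forebrain libraries. With a floor of 3 counts over the forebrain libraries, it was at least 3012-fold higher in cerebellum. Impg1, a matrix proteoglycan described in the retina, had 43.5, 43.1, 47.2, 52.3 and 49.1 CPM in cerebellum, against a lowest of 0, a median of 0 and a highest of 0.543 CPM in forebrain. Sdc1, the heparan sulphate proteoglycan syndecan 1, had 100, 103, 97, 119 and 97.2 CPM in cerebellum, against a lowest of 0.211, a median of 0.781 and a highest of 1.36 CPM in forebrain. Mab21l2, a gene of eye and midbrain development, had 50.2, 37.2, 42.5, 46.1 and 41.5 CPM in cerebellum, against a lowest of 0.0733, a median of 0.388 and a highest of 1.13 CPM in forebrain. All 4 genes were separate in every library, and Sdc1 and Mab21l2 had mean log2 differences of 7.03 ± 0.13 and 6.74 ± 0.23. Here and elsewhere, separation in every library was a condition for genes named by the size of their difference. It is no further result on them.

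Forebrain patterning factors were lower in cerebellum. Of 47 tested, 26 were set apart lower and 1 higher, Id2, with a median log2 difference of -2.54. Emx1 (ENSRNOG00000015493, chromosome 4, 116968000 to 116985551, plus strand) had no count in any cerebellum library, against a lowest of 10.7, a median of 16.1 and a highest of 25.7 CPM in forebrain. With a floor of 3 counts over the cerebellum libraries it was at least 424-fold lower in cerebellum.

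Emx2, its paralog, Fezf2, a factor of deep layer projection neurons, and Nr2e1, an orphan receptor of neural stem cells, had 2 counts each in the 5 cerebellum libraries. The ratios of forebrain to cerebellum were 557-fold, with a 95% exact counting interval of 154 to 4604 for Emx2, 772-fold, with a 95% exact counting interval of 214 to 6380 for Fezf2 and 570.3-fold, with a 95% exact counting interval of 158 to 4711 for Nr2e1. Lhx2, a selector of the cortex, had 0.0632, 0.364, 0, 0.0642 and 0.0777 CPM in cerebellum, against a lowest of 45.3, a median of 73 and a highest of 92.5 CPM in forebrain. Bcl11b, of corticospinal and striatal neurons, had 0.0632, 0.728, 0.0676, 0.193 and 0.777 CPM in cerebellum, against a lowest of 69, a median of 121 and a highest of 242 CPM in forebrain. No cerebellum library reached 1 CPM for Lhx2 or Bcl11b, and their mean log2 differences were -9.13 ± 0.26 and -8.44 ± 0.36. Tbr1, of glutamatergic cortical neurons, stood at 1.06 ± 0.308 CPM in cerebellum and 51.8 ± 20.8 CPM in forebrain. Id2, the higher gene, is an inhibitor of bHLH factors and had 92.4, 103, 102, 113 and 98.7 CPM in cerebellum, against a lowest of 31.2, a median of 47.6 and a highest of 67.8 CPM in forebrain. It was not set apart with upper-quartile factors, at a mean log2 difference of 1.05, without anterior cortex libraries 11, 13 and 15, at 0.952, or in the blast libraries, at 0.936.

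Genes of forebrain pyramidal neurons were lower in cerebellum as a group. Of 40 tested, 28 were set apart lower and none higher, with a median log2 difference of -3.01. Ddn (ENSRNOG00000059605, chromosome 7, 140479711 to 140483693, minus strand), dendrin, a protein of dendrites and spines whose mRNA is carried into dendrites, had 0.632, 0.849, 0.473, 0.193 and 0.233 CPM in cerebellum, against a lowest of 1677, a median of 2306 and a highest of 2921 CPM in forebrain. Its log2 difference was -12.23 ± 0.23 against hippocampus, -12.31 ± 0.23 against amygdala and -12.07 ± 0.23 against anterior cortex (adjusted p at most 1.33e-19). Nrgn (ENSRNOG00000010688, chromosome 8), which binds calmodulin at the postsynapse, had 2.4, 3.28, 1.62, 1.8 and 1.79 CPM in cerebellum, against a lowest of 612, a median of 999.5 and a highest of 2154 CPM in forebrain. Hippocampus was the highest forebrain region for Nrgn, at 1516 ± 380.1 CPM, and the log2 difference was -9.43 ± 0.28 against hippocampus, -8.79 ± 0.27 against amygdala and -8.63 ± 0.27 against anterior cortex.

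Camk2a (ENSRNOG00000018712, chromosome 18), the calcium/calmodulin kinase of long-term potentiation, was lower without being absent. It had 41.3, 39.7, 50.1, 33 and 37.6 CPM in cerebellum, against a lowest of 1186, a median of 2417 and a highest of 3272 CPM in forebrain, with a log2 difference of -5.89 ± 0.23 against hippocampus, -5.52 ± 0.22 against amygdala and -5.98 ± 0.23 against anterior cortex. Icam5, a telencephalic adhesion protein, had 0.569, 0.971, 0.811, 0.385 and 0.622 CPM in cerebellum, against a lowest of 157, a median of 347 and a highest of 756 CPM in forebrain. Slc30a3, the zinc transporter of glutamatergic vesicles, averaged 2.3 ± 0.738 CPM in cerebellum and 165 ± 58.8 CPM in forebrain. Icam5 overlaps a gene listed on 1 side only.

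Lists drawn for single forebrain regions were also lower at their median member. Of 16 hippocampal subfield genes, 8 were set apart lower and 2 higher, with a median log2 difference of -2.29. Of 19 cortical layer genes, 10 were lower and 2 higher, with a median of -2.03. Of 16 amygdala genes, 9 were lower and 3 higher, with a median of -2.88. Summed levels differed from this: cortical layer genes held 1606 to 1740 CPM in cerebellum libraries and 935.5 to 1474 CPM in forebrain libraries. Hippocampal subfield genes summed to 1080 to 1200 CPM in cerebellum, 1848 to 2226 in hippocampus, 687.2 to 854.7 in amygdala and 675.6 to 778.6 in anterior cortex. The amygdala list was lower by its sum too, at 171.5 to 210.9 CPM in cerebellum and 316.8 to 524.8 CPM in forebrain. The higher members were genes of cerebellum as well: Calb1 and Pcp4, a calmodulin regulator of Purkinje cells, in the hippocampal list, Calb1 and Etv1 in the cortical list, and Ebf1, Prkcd and Cyp26b1 in the amygdala list. Ebf1, a helix-loop-helix factor, had 39.9 ± 5.3 CPM in cerebellum and 5.35 ± 2.58 CPM in forebrain, and Prkcd, a protein kinase C, had 65.1 ± 12.4 CPM in cerebellum and 15.4 ± 6.32 CPM in forebrain. Of 22 genes of medium spiny neurons, a cell type of the neighbouring striatum, 9 were lower and none higher, with a median of -1.69. Gng7, the G protein gamma subunit of dopamine signalling, averaged 7.47 ± 0.805 CPM in cerebellum and 196 ± 47.7 CPM in forebrain.

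**Figure D3:**
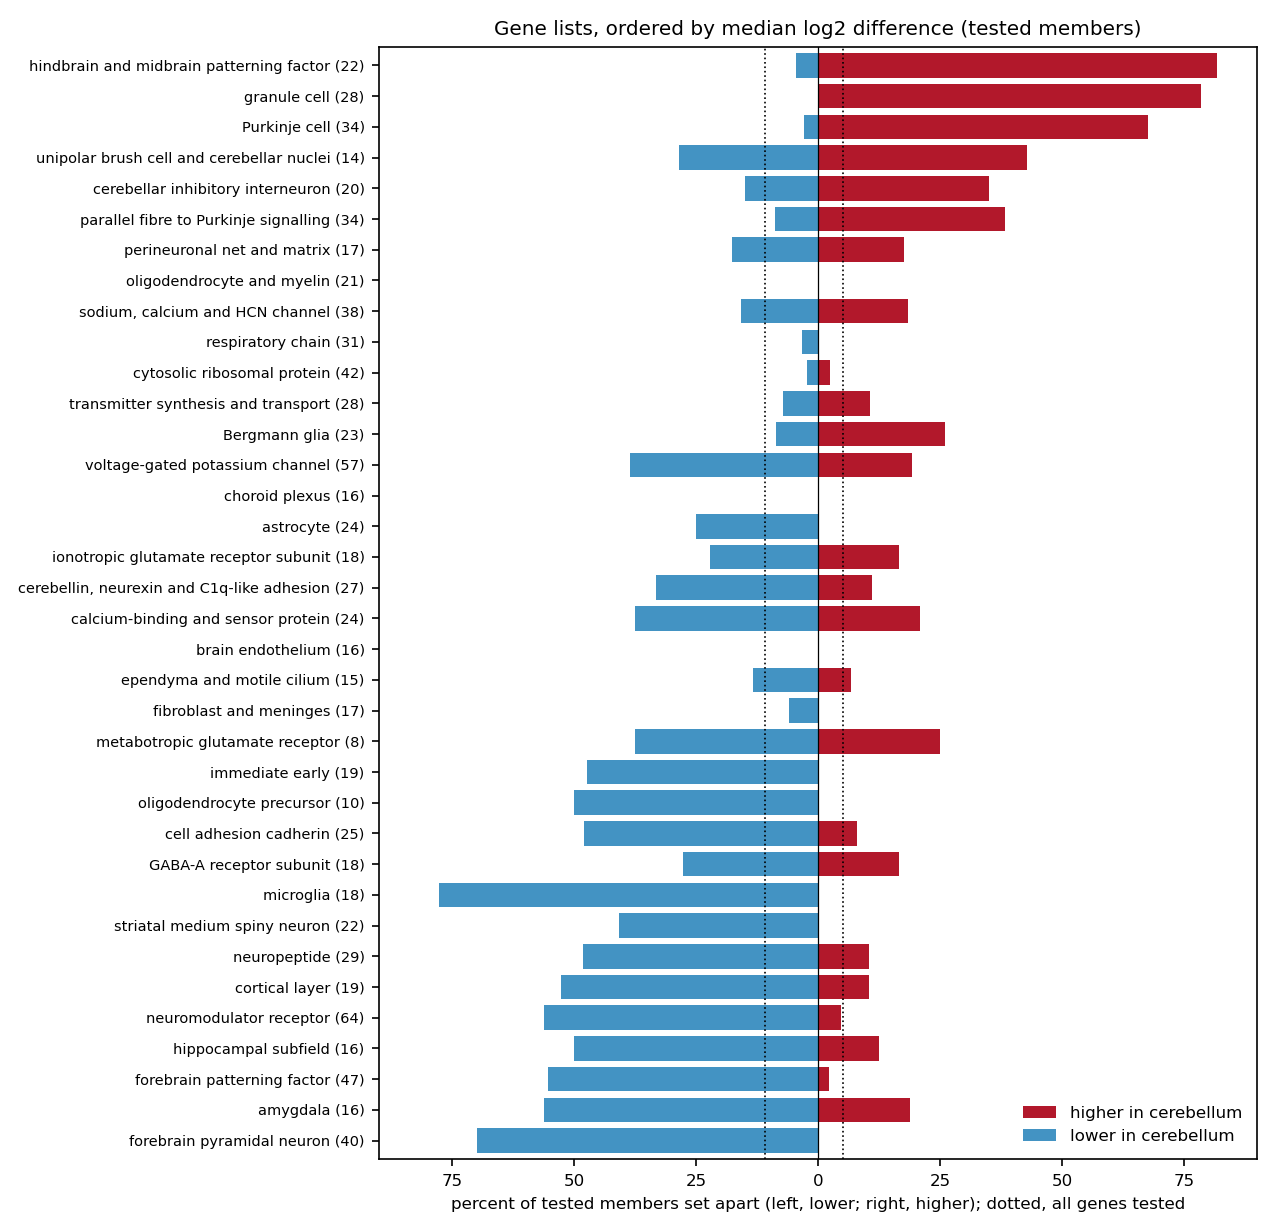
The percent of tested members of 36 gene lists that were set apart, lower in cerebellum to the left in blue and higher to the right in red, with the number tested in brackets and dotted lines at 10.8% lower and 5.15% higher, the shares over all genes tested. Lists run from the highest median log2 difference, hindbrain and midbrain patterning factors with 18 of 22 higher, to the lowest, forebrain pyramidal neurons with 28 of 40 lower.

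Transmitter receptor families had members on both sides. Of 18 GABA-A receptor subunits, 3 were set apart higher and 5 lower, with a median log2 difference of -1.52. Their summed level went the other way, at 2376 to 2561 CPM in cerebellum libraries and 721.4 to 1235 CPM in forebrain libraries. Beside Gabra6, the higher subunits included Gabrd, the extrasynaptic delta subunit that pairs with alpha 6. Gabrd had 329, 300, 287, 318 and 260.4 CPM in cerebellum, against a lowest of 25.1, a median of 37.5 and a highest of 59 CPM in forebrain. It was separate in every library, with a mean log2 difference of 2.98 ± 0.11.

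The lower GABA-A subunits were Gabra5, Gabra2, Gabrr2, Gabrg3 and Gabra4. Gabra5, the alpha subunit of extrasynaptic receptors on hippocampal pyramidal cells, had 0.443, 0.849, 0.338, 0.514 and 1.87 CPM in cerebellum, against a lowest of 39.6, a median of 79.9 and a highest of 201 CPM in forebrain. Gabra2 had 9.23, 9.83, 10.7, 7.77 and 8.24 CPM in cerebellum, against a lowest of 67.7, a median of 108 and a highest of 142 CPM in forebrain. The log2 difference was -7.93 ± 0.27 against hippocampus, -6.67 ± 0.26 against amygdala and -6.03 ± 0.26 against anterior cortex for Gabra5 and -3.73, -3.53 and -3.23 against the same 3 regions for Gabra2. Gabra5 has another gene model in the cerebellum table and overlaps a gene listed on 1 side only. On the CPM per kilobase scale 3 alpha subunits ran Gabra6 374, Gabra4 6.69 and Gabra2 4.43 in cerebellum, against Gabra2 50.7, Gabra4 25.2 and Gabra6 0.104 in forebrain.

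Of 18 ionotropic glutamate receptor subunits, 3 were set apart higher (Gria4 and Grin2c among them) and 4 lower (Grin2b, Grik5, Grid1 and Gria3), with a median log2 difference of -0.49. Grin2c, the NMDA receptor subunit that granule cells take up as they mature, had 649, 627, 662, 581 and 616 CPM in cerebellum, against a lowest of 116, a median of 200.5 and a highest of 286 CPM in forebrain. Grin2b, the NMDA receptor subunit of forebrain neurons, had 2.4, 3.82, 4.46, 2.57 and 2.88 CPM in cerebellum, against a lowest of 27.4, a median of 58.7 and a highest of 209 CPM in forebrain. These NMDA subunits were separate in opposite directions, with log2 differences of 1.95 ± 0.12 against hippocampus, 1.68 ± 0.12 against amygdala and 1.42 ± 0.12 against anterior cortex for Grin2c and -4.36 ± 0.42 against hippocampus, -3.93 ± 0.41 against amygdala and -5.03 ± 0.43 against anterior cortex for Grin2b. Grin2b overlaps a gene listed on 1 side only. Grin2a had 38.8, 36.6, 47.8, 27.7 and 43.4 CPM in cerebellum, against a lowest of 25.9, a median of 51.5 and a highest of 197 CPM in forebrain, and the ranges overlapped. It was lower than in hippocampus (adjusted p = 0.00328) and anterior cortex (adjusted p = 0.0172) and its log2 difference from amygdala was 0.10 ± 0.39 (adjusted p = 0.845, edgeR). The call against anterior cortex was lost without anterior cortex library 15, at a log2 difference of -0.563, and without cerebellum library 15, at -0.988. It was also lost with the replicate number as a block (-0.872), with the block and the gene length trend removed (-0.778), with limma-voom (-0.873) and without anterior cortex libraries 11, 13 and 15 (-0.116).

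Among AMPA receptor subunits, Gria4 was higher and Gria3 lower. Gria4, of Bergmann glia, granule cells and fast interneurons, had 540.2, 532, 609, 555 and 572 CPM in cerebellum, against a lowest of 57.5, a median of 74.6 and a highest of 98.1 CPM in forebrain. Gria3 had 112, 119, 119, 98.6 and 109.8 CPM in cerebellum, against a lowest of 216, a median of 258 and a highest of 370.3 CPM in forebrain. Neither gene's ranges overlapped, and the mean log2 differences were 2.88 ± 0.07 and -1.25 ± 0.09. With libraries scaled to their totals Gria3 was not set apart, at -1.09.

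Of 8 metabotropic glutamate receptors, 2 were set apart higher and 3 lower, with a median log2 difference of -1.17. By their sum they were higher, at 624.6 to 740.2 CPM in cerebellum libraries and 187 to 589.6 CPM in forebrain libraries. Grm4, the presynaptic receptor of parallel fibres, had 343, 408, 406, 373 and 331 CPM in cerebellum, against a lowest of 5.72, a median of 12 and a highest of 41.7 CPM in forebrain. Grm5, a postsynaptic receptor of forebrain neurons, had 3.04, 3.21, 4.39, 2.96 and 2.25 CPM in cerebellum, against a lowest of 38.7, a median of 70.8 and a highest of 108 CPM in forebrain. Grm4 and Grm5 stood on opposite sides, and the log2 difference of Grm5 was -4.56 ± 0.28 against hippocampus, -4.25 ± 0.27 against amygdala and -4.52 ± 0.28 against anterior cortex. Grm4, with a log2 difference of 5.60 ± 0.20 against hippocampus, 5.05 ± 0.19 against amygdala and 3.45 ± 0.18 against anterior cortex, has another gene model in the cerebellum table. Grm2, a presynaptic receptor also of Golgi cells, varied within cerebellum, at 25.7, 11.9, 5.88, 13.5 and 6.84 CPM, against a lowest of 19.8, a median of 39.8 and a highest of 81.3 CPM in forebrain. Its ranges overlapped although it was set apart lower, with a mean log2 difference of -1.69 ± 0.31. Without amygdala library 11 it was no longer set apart, at -1.57.

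The cerebellins split by member. Of 27 genes of cerebellins, neurexins and their C1q-like and adhesion partners, 3 were set apart higher (Cbln3 and Cbln1 among them) and 9 lower, with a median log2 difference of -0.56. Cbln2, the cerebellin of forebrain circuits, had 0.316, 1.09, 0.203, 0.129 and 0.622 CPM in cerebellum, against a lowest of 3.92, a median of 12.2 and a highest of 59.4 CPM in forebrain. Cbln4 had 0.443, 0.303, 0.27, 0.707 and 1.79 CPM in cerebellum, against a lowest of 1.88, a median of 4.59 and a highest of 21.3 CPM in forebrain. So the highest Cbln2 and Cbln4 values in cerebellum were below the lowest in forebrain, by log2 differences of -3.65 ± 0.36 against hippocampus, -4.64 ± 0.36 against amygdala and -6.62 ± 0.36 against anterior cortex for Cbln2 and -2.17, -3.99 and -2.71 against the same regions for Cbln4. C1ql3 and Lrrtm4, synaptic organisers of forebrain neurons, averaged 4.45 ± 0.721 and 2.26 ± 0.937 CPM in cerebellum, against 86 ± 33.5 and 31 ± 12.2 CPM in forebrain. Adgrb2, an adhesion G protein-coupled receptor, averaged 130.5 ± 9.87 CPM in cerebellum and 775 ± 186 CPM in forebrain. C1ql1, the climbing fibre ligand whose main source, the inferior olive, lies outside the cerebellum, averaged 8.57 ± 1.07 CPM in cerebellum and 28.9 ± 6.22 CPM in forebrain.

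**Figure D4:**
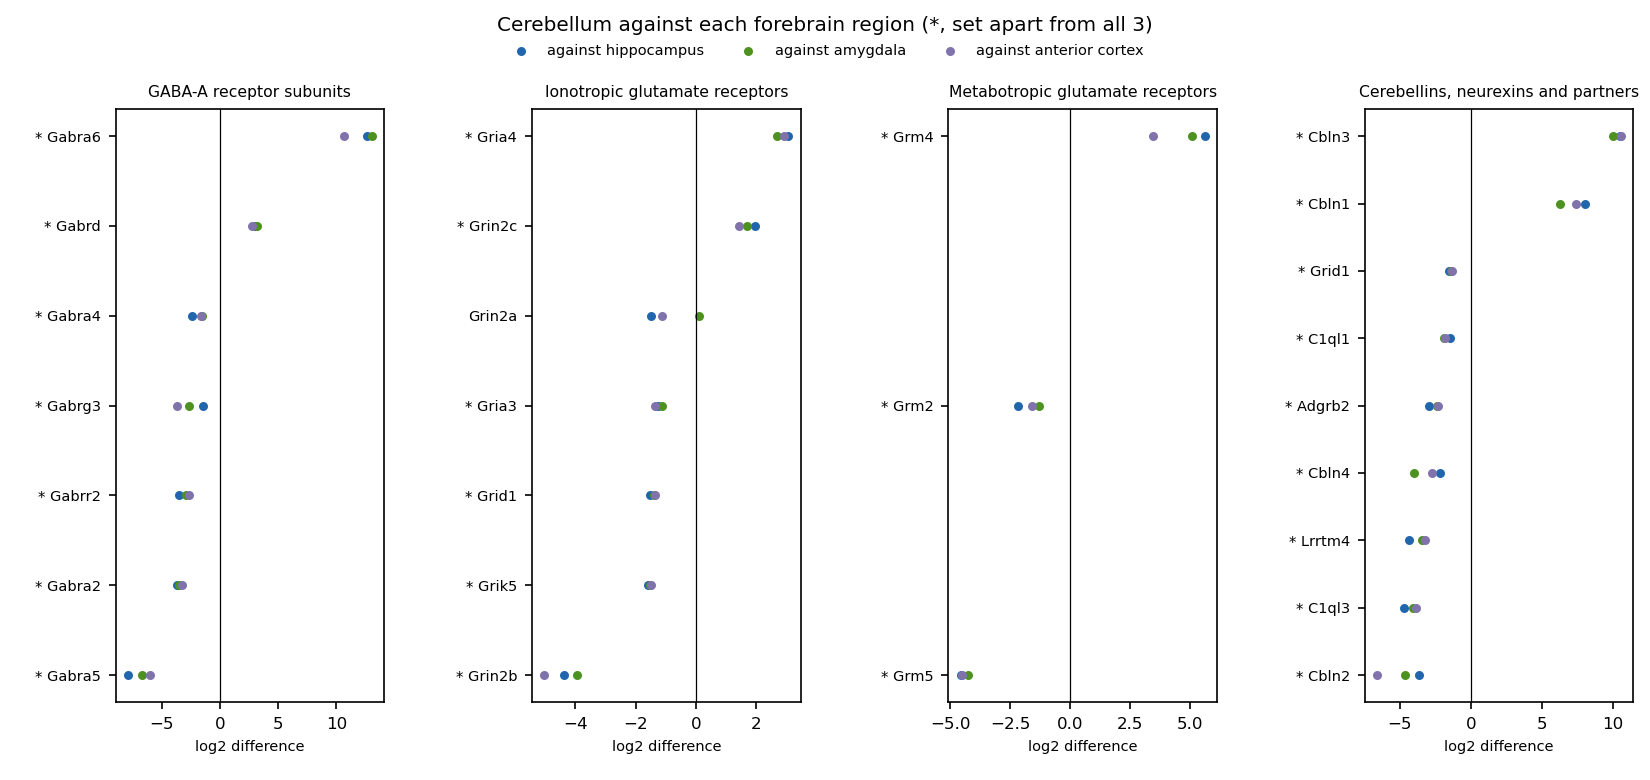
Log2 differences of cerebellum against hippocampus (blue), amygdala (green) and anterior cortex (purple) for the GABA-A receptor subunits, glutamate receptors and cerebellin-neurexin genes named in the text, ordered by the mean difference, with an asterisk on genes set apart from all 3 regions. Each family has members on both sides of 0, with Gabra6 the highest of the GABA-A subunits shown and Gabra5 the lowest.

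Most neuromodulator receptors tested were lower. Of 64 receptors for acetylcholine, monoamines, peptides and cannabinoids, 36 were set apart lower and 3 higher, with a median log2 difference of -2.22. Chrm1, the M1 muscarinic receptor of forebrain pyramidal neurons, had 0.0632, 0, 0.203, 0.0642 and 0.467 CPM in cerebellum, against a lowest of 65.2, a median of 102 and a highest of 185 CPM in forebrain. Chrm4, the M4 receptor, averaged 0.266 ± 0.0479 CPM in cerebellum and 26.8 ± 5.64 CPM in forebrain. Both were separate in every library, with mean log2 differences of -9.39 ± 0.30 and -6.59 ± 0.17. Sstr4, a somatostatin receptor, and Npy2r, a neuropeptide Y receptor, averaged 0.0511 ± 0.0287 and 0.0906 ± 0.0996 CPM in cerebellum, against 13.3 ± 6.89 and 5.82 ± 4.61 CPM in forebrain. Npy2r was low in anterior cortex as well, at 0.191 to 0.781 CPM, which overlapped the cerebellum range of 0 to 0.203 CPM.

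The 3 higher receptors were Cnr1, Crhr1 and Chrnb4. Cnr1, the CB1 cannabinoid receptor of parallel fibre and interneuron terminals, had 602, 607, 598, 548 and 550.3 CPM in cerebellum, against a lowest of 119, a median of 186 and a highest of 261 CPM in forebrain. Crhr1, the corticotropin-releasing hormone receptor, had 50.3, 46.2, 44.7, 50.6 and 41.4 CPM in cerebellum, against a lowest of 1.76, a median of 10.1 and a highest of 15.6 CPM in forebrain. Neither overlapped, and the log2 differences were 1.52 ± 0.13 against hippocampus, 1.64 ± 0.13 against amygdala and 2.04 ± 0.13 against anterior cortex for Cnr1 and 4.08 ± 0.20 against hippocampus, 2.24 ± 0.18 against amygdala and 1.68 ± 0.17 against anterior cortex for Crhr1. Chrnb4, a nicotinic subunit, was near the detection limit, at 1.4 to 3.21 CPM in cerebellum and 0.0733 to 1.69 CPM in forebrain, and the ranges overlapped. Leaving out any of 10 single libraries, cerebellum 11 and 13 among them, ended its call, at mean log2 differences of 1.44 to 1.56, and it was not set apart without anterior cortex libraries 11, 13 and 15 (1.57), with the replicate block and the gene length trend removed (1.60) or in the blast libraries (2.01).

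Of 29 neuropeptides, 14 were set apart lower and 3 higher, with a median log2 difference of -1.78. Summed over the list, however, they held 1564 to 1872 CPM in cerebellum libraries and 696 to 1785 CPM in forebrain libraries, and Cbln1, a member of the list, averaged 802 ± 50.5 CPM in cerebellum. Cck (cholecystokinin), which was also on the Purkinje list, had 0.0632, 0.546, 0.676, 0.193 and 0.311 CPM in cerebellum, against a lowest of 109, a median of 161 and a highest of 308 CPM in forebrain, a mean log2 difference of -8.88 ± 0.40. Vip, of forebrain interneurons, averaged 0.114 ± 0.103 CPM in cerebellum and 11.7 ± 5.48 CPM in forebrain, and Pdyn (prodynorphin) 0.511 ± 0.399 CPM in cerebellum and 38.1 ± 33.5 CPM in forebrain. Gal (galanin) was higher, at 3.41, 3.4, 2.9, 3.85 and 3.65 CPM in cerebellum, against a lowest of 0, a median of 0.548 and a highest of 1.59 CPM in forebrain. Penk (proenkephalin), which Golgi cells make, was between the forebrain regions: 52.6 ± 4.09 CPM in cerebellum, against 30.2 ± 11.2 in hippocampus, 84.5 ± 31.3 in amygdala and 74.8 ± 14.6 in anterior cortex (SD, n = 5 each). It was higher than in hippocampus (adjusted p = 0.00785), lower than in amygdala (adjusted p = 0.0184) and not called against anterior cortex (adjusted p = 0.0718, edgeR). The call of Penk against amygdala was lost without cerebellum library 14 or 33 or amygdala library 11, at -0.599 to -0.485, and it was called against anterior cortex without hippocampus library 13 or 14 or amygdala library 33. The amygdala call was also lost with libraries scaled to their totals (-0.55) and in the blast libraries (-0.402), and Penk was called lower than in anterior cortex by DESeq2 (-0.537), with upper-quartile factors (-0.563), with the gene length trend removed (-0.653), with the replicate block and that trend removed (-0.629) and in the blast libraries (-0.558).

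Of 28 genes for the synthesis and transport of transmitters, 3 were set apart higher (Slc1a6, Slc6a5 and Slc32a1) and 2 lower, near the shares over all genes tested (5.15% higher and 10.8% lower), with a median log2 difference of -0.27. Slc1a2, the main astrocyte glutamate transporter of the forebrain, had 70.4, 63, 78.3, 54.9 and 82.7 CPM in cerebellum, against a lowest of 137, a median of 411 and a highest of 1437 CPM in forebrain. No cerebellum library reached the forebrain minimum, and the log2 difference was -2.17 ± 0.29 against hippocampus, -2.51 ± 0.30 against amygdala and -3.70 ± 0.31 against anterior cortex. Slc17a8, the vesicular glutamate transporter 3, had 3 counts in the cerebellum libraries and 472 in forebrain. The vesicular transporter Slc17a6 had 14.5, 14.1, 14.9, 14.8 and 20.3 CPM in cerebellum, against a lowest of 3.26, a median of 14.3 and a highest of 26.2 CPM in forebrain, and was higher than in hippocampus (adjusted p = 1.03e-06, edgeR). Slc17a6 was also called lower than in amygdala. That call was lost without cerebellum library 11, 13, 14 or 15 or amygdala library 15, at log2 differences of -0.433 to -0.403. It was lost too with libraries scaled to their totals (-0.365), with the replicate block (-0.5), with the block and the gene length trend removed (-0.52) and in the blast libraries (-0.459).

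Each ion channel class had members on both sides. Of 57 voltage-gated potassium channel genes, 11 were set apart higher and 22 lower, with a median log2 difference of -0.39. Their sums overlapped, at 5087 to 5755 CPM in cerebellum libraries and 2790 to 5588 CPM in forebrain libraries. Kcnc1, a Kv3 channel of fast-firing neurons, had 779, 724, 847, 674 and 705 CPM in cerebellum, against a lowest of 76.4, a median of 109.7 and a highest of 164 CPM in forebrain. The groups did not overlap, with a mean log2 difference of 2.75 ± 0.10. Kcng4, a silent subunit that modifies Kv2 channels, and Kcnj12, an inward rectifier, averaged 205 ± 17.1 and 116 ± 6.97 CPM in cerebellum, against 19.2 ± 5.99 and 10.8 ± 3.54 CPM in forebrain.

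Kcnj4, another inward rectifier, went the other way, with 0.126, 0.121, 0.338, 0.257 and 0.311 CPM in cerebellum, against a lowest of 65.6, a median of 90.1 and a highest of 208 CPM in forebrain. Kcnf1, a silent subunit, and Kcnt2, a sodium-activated channel, averaged 0.213 ± 0.176 and 0.191 ± 0.121 CPM in cerebellum, against 48 ± 33.6 and 35 ± 16.6 CPM in forebrain. Kcnq5, of the M current, averaged 4.77 ± 1.06 CPM in cerebellum and 137 ± 47.2 CPM in forebrain. The mean log2 differences of Kcnj4, Kcnf1, Kcnt2 and Kcnq5 were -8.67, -7.04, -7.36 and -4.79, and every cerebellum library was below the forebrain range in all 4.

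Of 38 sodium, calcium and HCN channel genes, 7 were set apart higher and 6 lower, with a median of 0.08. The T-type calcium channels were on opposite sides. Cacna1g had 422, 412, 446, 357 and 365 CPM in cerebellum, against a lowest of 66.6, a median of 131 and a highest of 156 CPM in forebrain. Cacna1h had 3.67, 3.7, 3.78, 2.63 and 4.74 CPM in cerebellum, against a lowest of 119, a median of 154 and a highest of 365 CPM in forebrain. Both were separate in every library, with log2 differences of 2.39 ± 0.09 against hippocampus, 1.56 ± 0.09 against amygdala and 1.44 ± 0.09 against anterior cortex for Cacna1g and -6.27 ± 0.18 against hippocampus, -5.37 ± 0.18 against amygdala and -5.15 ± 0.17 against anterior cortex for Cacna1h. The calcium channel subunits Cacna2d2 and Cacnb4, whose loss causes ataxia in mice, averaged 201 ± 11.4 and 286 ± 31.7 CPM in cerebellum, against 50.6 ± 18.8 and 74.6 ± 48.9 CPM in forebrain. Without anterior cortex library 33, Cacnb4 was no longer past the rule in every contrast, at a mean log2 difference of 2.07. Of 24 calcium-binding and sensor proteins, 5 were higher and 9 lower, with a median of -0.57. Within it the hippocalcin-like proteins split: Hpcal1 averaged 596 ± 48.6 CPM in cerebellum and 72.8 ± 59.9 CPM in forebrain, while Hpcal4 averaged 67.2 ± 2.3 CPM in cerebellum and 1239 ± 247 CPM in forebrain.

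Immediate early genes, which neurons switch on after activity, were lower in cerebellum or not called apart. Of 19 tested, 9 were set apart lower and none higher, with a median log2 difference of -1.27. Egr3 had 0, 0.303, 0.203, 0.257 and 0.155 CPM in cerebellum, against a lowest of 45.9, a median of 66.4 and a highest of 99.3 CPM in forebrain. Fosb had 1.77, 2.73, 1.01, 0.578 and 0.777 CPM in cerebellum, against a lowest of 5.42, a median of 10.2 and a highest of 15.7 CPM in forebrain, and Nptx2 had 10.8, 11, 10.9, 8.61 and 10.8 CPM in cerebellum, against a lowest of 44.7, a median of 59.7 and a highest of 84.1 CPM in forebrain. None of these 3 overlapped, and the mean log2 differences were -8.46 ± 0.29, -2.86 ± 0.31 and -2.56 ± 0.15. Jun stood nearer, at 88.6 ± 11 CPM in cerebellum and 106 ± 28.5 CPM in forebrain. It was lower than in hippocampus and amygdala and higher than in anterior cortex, by log2 differences of -0.62, -0.30 and 0.32. The call of Jun against amygdala was lost without cerebellum library 33, at -0.195, and with libraries scaled to their totals, at -0.165. Bdnf, the activity-regulated neurotrophin, was likewise lower than in hippocampus, by a log2 difference of -1.32, and higher than in anterior cortex, by 0.91. The handling of the tissue before extraction was not given in the sources used here, and its part in these differences was not tested.

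Glial lists pointed in several directions. Of 18 microglia genes, 14 were set apart lower and none higher, with a median log2 difference of -1.61. Trem2, a lipid receptor of microglia, had 4.24, 4.85, 3.04, 3.79 and 4.2 CPM in cerebellum, against a lowest of 5.82, a median of 16.7 and a highest of 24.3 CPM in forebrain. Tmem119, a marker of resident microglia, had 2.91, 3.4, 6.35, 4.3 and 6.22 CPM in cerebellum, against a lowest of 9.54, a median of 19.9 and a highest of 32.1 CPM in forebrain. Ctss, the protease cathepsin S, had 67.7, 73.2, 67.7, 80.6 and 81.5 CPM in cerebellum, against a lowest of 111, a median of 262 and a highest of 404 CPM in forebrain. All 3 were separate, by mean log2 differences of -2.04 ± 0.30, -2.08 ± 0.26 and -1.72 ± 0.23. Summed over the list, microglia genes held 289 to 318 CPM in cerebellum libraries and 512 to 1226 CPM in forebrain libraries.

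Of 10 genes of oligodendrocyte precursors, 5 were lower and none higher, with a median of -1.37. Pdgfra, their growth factor receptor, had 25.1, 29.8, 33.2, 23.6 and 35.9 CPM in cerebellum, against a lowest of 64.2, a median of 121 and a highest of 155 CPM in forebrain, a mean log2 difference of -1.91 ± 0.12. The precursor genes summed to 428 to 459.8 CPM in cerebellum and 492 to 1162 CPM in forebrain. By contrast, none of 21 myelin genes was set apart, with a median of 0.11. Mbp (myelin basic protein) had 3159, 3494, 3383, 3500 and 3398 CPM in cerebellum, against a lowest of 2021, a median of 3012 and a highest of 7507 CPM in forebrain. It was higher than in amygdala (adjusted p = 0.0314) and lower than in anterior cortex (adjusted p = 0.0138), and its log2 difference of -0.32 against hippocampus had an adjusted p of 0.191 (edgeR). Its call against amygdala was lost without any of amygdala libraries 11, 14, 15 and 33, at 0.482 to 0.535, and that against anterior cortex without anterior cortex library 33, at -0.457. With libraries scaled to their totals the anterior cortex call was lost too (-0.382), and the amygdala call was lost with upper-quartile factors (0.466) and with the replicate block and the gene length trend removed (0.559). Of 24 astrocyte genes, 6 were lower and none higher, with a median of -0.48, and 9 had a positive mean log2 difference. The astrocyte sums overlapped, at 9351 to 10377 CPM in cerebellum libraries and 7196 to 15250 CPM in forebrain libraries. The lower members included the following. Slc7a11, the cystine transporter, had 26, 17.7, 23.2, 13.8 and 21.9 CPM in cerebellum, against a lowest of 69.7, a median of 102 and a highest of 172 CPM in forebrain, and Ntsr2, an astrocyte neurotensin receptor, averaged 47.7 ± 3.4 CPM in cerebellum and 145 ± 41.9 CPM in forebrain.

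None of 16 endothelial genes and none of 16 choroid plexus genes was set apart, with medians of -0.84 and -0.40. The mean log2 difference was nonetheless negative for all 16 endothelial genes. Summed over the list, they held 434 to 505 CPM in cerebellum libraries and 567.5 to 1549 CPM in forebrain libraries. Choroid plexus genes summed to 149.6 to 1630 CPM over cerebellum libraries and 136 to 6900 CPM over forebrain libraries, and the high values came from cerebellum library 33 and hippocampus library 11. Without hippocampus library 11 the choroid plexus median was 0.57, so its sign rests on 1 library. Folr1, the folate receptor of choroid plexus, had 0.632, 0.364, 0.405, 0.964 and 9.49 CPM in cerebellum, against a lowest of 0, a median of 2.16 and a highest of 53.2 CPM in forebrain. It was lower than in hippocampus (adjusted p = 0.0449) and higher than in anterior cortex (adjusted p = 0.048, edgeR), and the ranges overlapped. Both calls were lost without any of several single libraries: without cerebellum 33 the log2 difference from anterior cortex was 1.23, against 3.13 with it, and without hippocampus 11 that from hippocampus was -0.32, against -2.47 with it. Without cerebellum 33 the difference from amygdala was called, at -2.83. With limma-voom and with the replicate block neither call held (-2.15 and -2.37 against hippocampus, 2.58 and 2.79 against anterior cortex). The part of choroid plexus tissue in other results was not tested. Leaving out hippocampus library 11 gave 824 higher and 1677 lower genes set apart, and leaving out cerebellum library 33 gave 862 higher and 1636 lower.

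**Figure D5:**
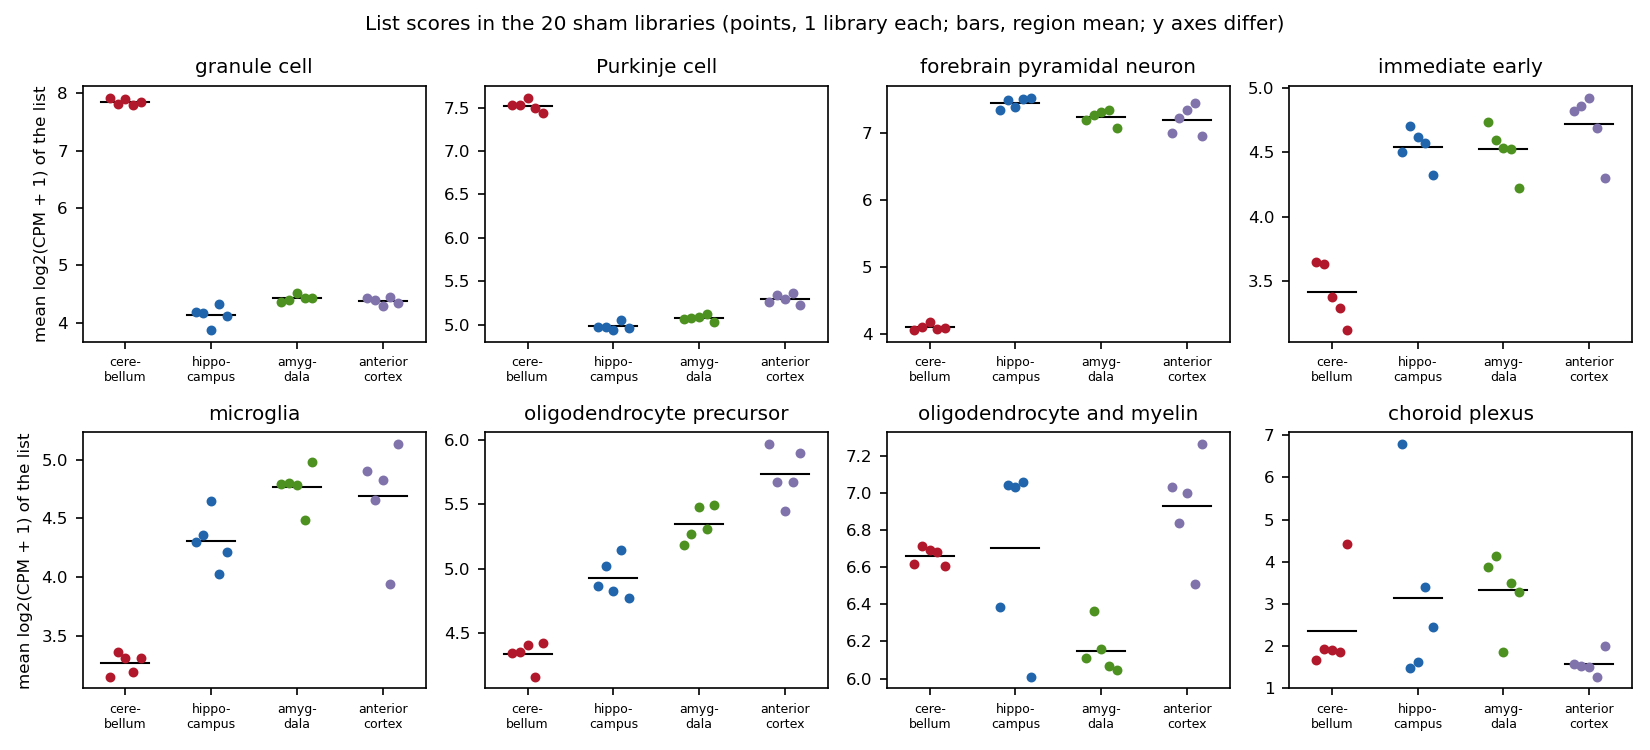
Mean log2(CPM + 1) over the genes of 8 lists (y axes differ) in the 20 sham libraries by region, with 1 point a library and a bar at the region mean. Granule and Purkinje scores were higher and pyramidal, immediate early, microglia and precursor scores lower in all 5 cerebellum libraries than in any forebrain library, while myelin and choroid plexus scores overlapped.

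Some genes were called in opposite directions against different forebrain regions, so a pooled forebrain would hide them. Foxp2, a factor of Purkinje cells and of amygdala and cortical neurons, had 5.88, 6.55, 7.09, 6.04 and 6.22 CPM in cerebellum, against 1.12 ± 0.316 CPM in hippocampus, 10.8 ± 1.78 in amygdala and 25.1 ± 10.7 in anterior cortex (SD, n = 5 each). It was higher than in hippocampus and lower than in amygdala and anterior cortex, with log2 differences of 2.47 ± 0.27 against hippocampus, -0.76 ± 0.23 against amygdala and -1.98 ± 0.23 against anterior cortex. Prox1, the homeodomain factor of dentate granule cells, averaged 56.7 ± 4.93 CPM in cerebellum, against 143 ± 52.5 in hippocampus, 16.3 ± 2.06 in amygdala and 20.6 ± 7.81 in anterior cortex. It was lower than in hippocampus and higher than in the other 2 regions, by log2 differences of -1.33, 1.80 and 1.46.

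Hcn4, a pacemaker channel, followed the pattern of Foxp2, with log2 differences of 1.93 ± 0.19 against hippocampus, -1.06 ± 0.17 against amygdala and -0.99 ± 0.17 against anterior cortex. Rgs4, a regulator of G protein signalling, also did, with 77.3 ± 5.88 CPM in cerebellum, against 31.5 ± 12.8 in hippocampus, 154 ± 22.5 in amygdala and 219 ± 24.3 in anterior cortex. Cux2, of upper cortical layers, had log2 differences of 0.77, -0.93 and -1.84 against hippocampus, amygdala and anterior cortex. Hapln4, a link protein of perineuronal nets, had the pattern of Prox1, with 295 ± 18.9 CPM in cerebellum, against 501 ± 40.1 in hippocampus, 106 ± 13.1 in amygdala and 126 ± 25.8 in anterior cortex.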

How the data were processed

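Total RNA of 4 rat brain regions was sequenced. Per the file headers and values, each of 4 deposited tables, 1 a region, gives the authors' raw counts of reads by gene and library. Per the labels' protocols, RNA was extracted with Qiazol and RNeasy columns and libraries were made with an NEBNext Ultra RNA kit, and the submitters' processing notes name CASAVA. The genome build, annotation, aligner and counter were not given in the sources used here.

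The deposited count columns of the 20 sham libraries were joined by gene identifier, and 20814 genes in all 4 tables were kept. With edgeR 4.0.16 in R 4.3.3, genes were filtered by filterByExpr (minimum count 10), scaled by TMM and fitted with 4 group means, without a block, and cerebellum was tested against each forebrain region by the two-sided quasi-likelihood F test with Benjamini-Hochberg adjustment over 15695 genes. The SE of a log2 difference was taken from its F statistic. Libraries held 11268097 to 19156693 counts, and the common biological coefficient of variation was 23.3%. No 2 libraries of a group agreed within sampling noise (chi-square per degree of freedom at least 6.94 over 40 pairs). The steps were tested on simulated data.

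The genes set out by name were the 15 higher and 15 lower genes with the largest smallest contrast, separate in all libraries and with a mean of at least 10 CPM in the higher group, up to 4 members of each list in each direction and 2 called in opposite directions, textbook genes of the comparison, and 5 genes of the cerebellum table alone. The members, the 36 lists and the rules were chosen with earlier results of these data known. Alternatives were DESeq2 1.42.0, limma-voom 3.58.1, other scalings and filters, other sets of genes and libraries, a replicate block and the blast libraries. Promoters were read from RefSeq windows of GRCr8. All raw count columns had a sample or a group. Some genes that the naming rule chose are not reported here, though they count in the totals.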

Additional observations from a re-analysis of the deposited data

Results flagged for a closer look

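Among the 199 named genes and 36 list scores, 17 genes and 1 list had a cerebellum library far from the other 4 (gap over range above 0.71, the Dixon limit for 5 values). Chance gives such a value in about 1 group in 20, but this share does not hold for genes at a few counts, whose values move in steps. Cerebellum library 33 held several of them. Folr1, the folate receptor of choroid plexus, had 9.49 CPM there, against 0.364 to 0.964 in the other 4, and the choroid plexus list score was 4.42 there, against 1.67 to 1.92. In the same library Cbln4 had 1.79 CPM (0.27 to 0.707 in the others), Meis2 had 4.43 (1.4 to 1.99) and Slc17a6 had 20.3 (14.1 to 14.9). Hes3 was lowest there at 61.1 CPM (73.5 to 75.3). Sstr4 was at 0 there, against 0.0607 to 0.0676 CPM in the others, which is the level of 1 count.

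Cerebellum library 13 had the high value in Lhx2 at 0.364 CPM, Emx2 at 0.121 (2 counts), Necab1 at 1.52 and C1ql1 at 10.4. All of these genes were lower in cerebellum. Library 13 also had the high value in Ndufa1 at 0.971. Its levels of the first 4 were below those of every forebrain library. Library 11 stood out in Rpl8, a ribosomal protein, at 101 CPM against 4.75 to 7.76 in the others, and in Cspg4 at 15.6 (12.1 to 13). Without that library the mean log2 difference of Rpl8 was 0.391, against 2.47 with it, and it was not set apart. Nor was it by DESeq2 (2.45), by limma-voom (1.22) or with the replicate block (1.60). The forebrain range was 1.91 to 6.62 CPM. Library 14 was high in Egr2 at 0.27 CPM, and library 15 was high in Grp at 0.0642 and Slc17a8 at 0.193, which are 1 and 3 counts, and low in Nptx2 at 8.61 (10.8 to 11). What sets these values apart was not tested.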

How the results depend on the processing

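The counts of genes set apart kept within 1.5 times of 808 higher and 1701 lower under every change of tool, scaling, gene set or library tried, and no called count against a single region moved by that much. DESeq2 gave 792 and 1780 and limma-voom 869 and 1578. Leaving out each library in turn gave 783 to 866 higher and 1594 to 1749 lower. Changing the rule moved the counts: with no minimum difference 2660 and 3025 genes passed, and with a log2 difference of 2 in each contrast 266 and 724 did. With library totals in place of TMM factors the median of all genes was 0.17 instead of 0.0045, and 57.4%, 57.0% and 63.0% of the genes called against hippocampus, amygdala and anterior cortex were higher, in place of 47.7%, 47.5% and 49.4% by TMM. Without genes that overlap a gene listed on 1 side only, a setting chosen after seeing the data, 785 and 1618 genes were set apart.

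The replicate numbers were not taken to pair the libraries, because the labels do not say so. Same-numbered pairs correlated above 0.1 more often than others, and whether they came from the same animal is not known. The deviations of same-numbered libraries correlated at -0.17 to 0.476 (median 0.0409, 10 of 27 pairs above 0.1), those of differently numbered ones at -0.388 to 0.365 (median -0.0147, 15 of 123 above 0.1), and 8 of 19 libraries correlated best with their own number. With the replicate block in the fit, 814 genes were higher and 1640 lower, and 789 and 1621 of the 808 and 1701 stayed so. In the 20 blast libraries 849 genes were set apart higher and 1601 lower, of which 712 and 1385 are among the sham genes, and no gene set apart in sham was set apart on the other side there.

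List medians moved by more than the spread between libraries in these cases. With limma-voom the median was 5.14 for hindbrain patterning and -1.45 for neuropeptides. With library totals the median was 3.31 for granule cells, 2.47 for Purkinje cells, 1.30 for cerebellar interneurons, 1.64 for unipolar brush and nuclear cells, -0.22 for Bergmann glia, 5.11 for hindbrain patterning, -2.38 for forebrain patterning, -2.85 for pyramidal neurons and -1.52 for medium spiny neurons. It was -2.12 for hippocampal subfields, -1.85 for cortical layers, -0.39 for cerebellins and partners, -0.10 for transmitter genes, -2.06 for neuromodulator receptors, -0.40 for calcium sensors and 0.34 for nets and matrix. Over genes with the same model in all tables the median was 2.46 for Purkinje cells, 1.99 for unipolar brush and nuclear cells, -3.06 for forebrain patterning, -1.23 for GABA-A subunits and 0.000279 for transmitter genes. Without genes that overlap a gene of 1 side the median was 2.42 for Purkinje cells, 1.35 for cerebellar interneurons, -2.81 for forebrain patterning, -2.70 for pyramidal neurons, -1.31 for medium spiny neurons, -1.11 for GABA-A subunits, -0.30 for calcium sensors and -1.16 for oligodendrocyte precursors. Without anterior cortex libraries 11, 13 and 15 the median was 2.43 for Purkinje cells, -0.24 for Bergmann glia, -2.47 for forebrain patterning and -1.78 for cortical layers. With the replicate block the median was 5.08 for hindbrain patterning. With the block and the gene length trend removed the median was 5.06 for hindbrain patterning. In the blast libraries the median was 2.22 for Purkinje cells, 0.90 for cerebellar interneurons, 5.06 for hindbrain patterning, -1.06 for medium spiny neurons, -1.96 for hippocampal subfields, -1.77 for cortical layers, -1.18 for GABA-A subunits, -2.02 for neuromodulator receptors and -0.42 for ependyma. With each library left out in turn, the medians that moved ran from -2.63 to -2.41 for forebrain patterning, -3.06 to -2.85 for pyramidal neurons, -2.31 to -2.16 for hippocampal subfields, -2.04 to -1.76 for cortical layers, -3.07 to -2.68 for amygdala, 2.28 to 2.39 for Purkinje cells, -2.29 to -2.03 for neuromodulator receptors and 4.88 to 5.27 for hindbrain patterning. The sign changed for the transmitter genes (-0.27 in the main analysis) over genes with the same model, for respiratory chain genes at -0.081 without anterior cortex libraries 11, 13 and 15 (0.0744 with them), and for choroid plexus genes, at 0.57 without hippocampus library 11, 0.0952 with the block, 0.105 with the block and length trend and 0.925 in blast libraries, against -0.399. The cause of these moves was not tested. Named genes reversed in the blast libraries in 3 cases: Foxp2 against amygdala at 0.000263, Ndufa1 at 1.07 and Rpl8 at -1.14. Over all named genes and alternatives, 9018 values kept their call, 194 lost it, 22 gained it and 8 uncalled ones changed sign under an alternative. Folr1, Chrnb4, Dnah9, Lhx9 and Slc17a6 lost a call under 9 or more settings each. For Slc17a6 this was the call against amygdala. Genes at a few counts in a group, such as Grp, Emx2 and Slc17a8, are limited by depth.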

Other observations

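Cell adhesion and matrix genes also separated cerebellum. Of 25 cadherins and protocadherins, 2 were set apart higher and 12 lower, with a median log2 difference of -1.40. Cdh15 (M-cadherin), which granule cells share with muscle, had 136, 131, 135, 130.1 and 117 CPM in cerebellum, against a lowest of 3.43, a median of 5.24 and a highest of 8.45 CPM in forebrain. Cdh7 had 67.3, 59.5, 62.6, 61.4 and 59.2 CPM in cerebellum, against a lowest of 1.31, a median of 6.73 and a highest of 16.6 CPM in forebrain. Both were separate in every library. Of the lower ones, Pcdh8 had 0.506, 0.849, 1.08, 0.964 and 0.0777 CPM in cerebellum, against a lowest of 47.7, a median of 114 and a highest of 146 CPM in forebrain, and Cdh9 averaged 0.896 ± 0.478 CPM in cerebellum and 28.5 ± 19.9 CPM in forebrain (SD, n = 5 and 15). Cdh4 was higher than in hippocampus and lower than in amygdala and anterior cortex, with log2 differences of 1.32, -1.18 and -1.16.

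Of 17 genes of perineuronal nets and matrix, 3 were higher and 3 lower, with a median of 0.18. Reln (reelin), which granule cells secrete, had 765, 651, 798, 613 and 746 CPM in cerebellum, against a lowest of 21.4, a median of 101 and a highest of 169.8 CPM in forebrain, a mean log2 difference of 3.09 ± 0.19. Tnc (tenascin C) averaged 66.7 ± 9.58 CPM in cerebellum and 22.1 ± 8.49 CPM in forebrain, and Ncan (neurocan), a proteoglycan of the nets, averaged 31.5 ± 4.29 CPM in cerebellum and 184 ± 54.6 CPM in forebrain. Of 15 genes of ependyma and motile cilia, 1 was higher and 2 lower, with a median of -0.88, and 2 dynein heavy chains went opposite ways. Dnah11 had 99.1, 84.6, 102, 69.7 and 78.5 CPM in cerebellum, against a lowest of 2.43, a median of 9.83 and a highest of 18.1 CPM in forebrain, and Dnah9 had 9.74, 9.77, 10.5, 7.64 and 11.5 CPM in cerebellum, against a lowest of 13.7, a median of 71.7 and a highest of 169 CPM in forebrain. Dnah9 was not set apart without cerebellum library 11, 13, 14 or 15 or anterior cortex library 15, at mean log2 differences of -2.51 to -2.41, with limma-voom (-2.49), with libraries scaled to their totals (-2.37) or with the replicate block (-2.48). Of 17 genes of fibroblasts and meninges, Bmp7, a bone morphogenetic protein, was lower, and without hippocampus library 11, with limma-voom or in the blast libraries it was not, at mean log2 differences of -1.72, -1.76 and -1.25.

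Over all genes tested 16.0% were set apart. Of 31 nuclear genes of the respiratory chain and ATP synthase 1 was set apart, with a median of 0.07, and of 42 cytosolic ribosomal proteins Rpl8 was higher and Rplp1 lower, with a median of -0.25. Rplp1 averaged 146 ± 10.5 CPM in cerebellum and 338 ± 109 CPM in forebrain, and without hippocampus library 14 or anterior cortex library 33 it was not set apart, at -1.10 and -1.16, nor with libraries scaled to their totals, at -1.04. The nuclear respiratory chain gene was Ndufa1, which had 0.253, 0.971, 0.0676, 0.257 and 0 CPM in cerebellum, against a lowest of 0, a median of 10.2 and a highest of 31.2 CPM in forebrain, and was at or near 0 in some libraries of each region. Without hippocampus library 14 it was not set apart, at -4.50, nor with limma-voom (-3.12) or the replicate block (-4.15), and in the blast libraries its difference had the other sign. Of 13 protein-coding genes of the mitochondrial genome, 2 were set apart lower, Mt-nd4 with a mean log2 difference of -1.54 and Mt-atp8 with -1.82, and the mean log2 differences of the 13 ran from -1.82 to -0.75. Both mitochondrial ribosomal RNAs were set apart lower, and none of 12 mitochondrial transfer RNAs was set apart. Long intergenic RNAs were set apart higher in 10.03% of 299 and lower in 14.72%, against 4.99% and 10.79% of 14757 protein-coding genes.

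Among abundant genes set apart higher, Tubb4a, a beta tubulin, stood at 1011 CPM per kilobase in cerebellum and 352 in forebrain. Nrep, a neuronal regeneration protein, stood at 665 CPM per kilobase in cerebellum and 34.3 in forebrain. Among abundant genes set apart lower, Apoe, the main brain apolipoprotein, stood at 917 CPM per kilobase in cerebellum and 2330 in forebrain, and Camk2n1, an inhibitor of the kinase Camk2a, at 249.6 in cerebellum and 2022 in forebrain. These 4 genes were chosen for their abundance after their values were seen.

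The cerebellum table lists 470 genes that no forebrain table lists, so these have no comparison. The 5 with most counts were Gdf1, a growth factor of the TGF-beta family, with 1264, 1336, 1250, 1303 and 892 counts in the 5 cerebellum libraries, Kmt2c, a histone methyltransferase, with 2446 in all, AC113635.3 with 2185, Skor2, a corepressor of Purkinje cells, with 1417, and AABR07064061.1 with 1287. Scgn (secretagogin), a calcium-binding protein of forebrain and olfactory neurons, had no count in any cerebellum library, against a lowest of 0.366, a median of 0.939 and a highest of 7.72 CPM in forebrain. With a floor of 3 counts over the cerebellum libraries it was at least 58.3-fold lower.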
